A study of Mus musculus with 20 samples.

Results

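Bcl11b regions of the cells labelled Tn were set against Foxp3 regions of regulatory T cells (Treg), to find which sites that hold Bcl11b in Tn cells are Foxp3 sites in Treg cells and at which genes they lie. The Tn Bcl11b set joins the regions listed as common to wild-type (WT) Treg and Tn cells with those listed as specific to Tn cells, which gave 5222 of the 22081 distinct regions in the deposited lists. The WT Foxp3 set joins the regions common to Treg Bcl11b and Treg Foxp3 with those specific to Foxp3, which gave 14250 regions. A region was taken as shared when its chromosome, start and end were identical in both sets, and 3108 of the 5222 Tn Bcl11b regions were.

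The regions come from chromatin immunoprecipitation and sequencing (ChIP-seq) of mouse CD4+ T cells on the C57BL/6 background, in 20 samples of 9 groups. WT cells carried Foxp3-IRES-YFP-Cre and were sorted as CD4+YFP+ from draining lymph nodes and spleen. Bcl11b was precipitated from WT Tn cells in 3 libraries and from WT Treg cells in 3, and Foxp3 from WT Treg cells in 2. What Tn stands for is not spelled out in the labels, and these cells carry the sort markers of the Treg cells, so a marker of Foxp3 expression is on record for both, and the identity of the Tn cells could not be checked on lists of positions. KIKO cells are Treg cells devoid of Foxp3, sorted as CD4+GFP+ from Foxp3-GFPKO animals, with 2 Bcl11b libraries. Bcl11b-KO Treg cells, Bcl11b f/f with Foxp3-IRES-YFP-Cre and sorted as CD4+YFP+, gave 2 Foxp3 libraries, and in them Cre is expressed from the Foxp3 locus, so the deletion is limited to cells that have turned that locus on. The other 8 libraries were input DNA. Positions were listed per group, so there is no value per library, no read depth and no replicate spread, and the intervals and tests below cover the counting of regions only.

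Bcl11b is a zinc-finger transcription factor needed for commitment to the T cell lineage and for the identity of mature T cells, and it can recruit the NuRD corepressor. Foxp3 is the forkhead transcription factor that defines Treg cells and their suppressive programme. Foxp3 is known to bind largely at regulatory elements that are already accessible in conventional T cells and occupied there by other factors, among them Ets and Runx proteins.

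Of the genes named below, 5 start windows that a Tn Bcl11b region overlapped are printed, because they show both kinds of promoter that the comparison separates. Each runs from 250 bases before to 50 bases after an annotated start, 5′ to 3′ on the strand of the gene, from RefSeq annotation of GRCm38.p6. Capitals mark matches, on either strand, to the forkhead words TGTTTAC and TGTTTGC, the Ets word CCGGAAG, its core GGAAG, and the Runx word TGTGGT, so that every CCGGAAG also holds a GGAAG. The region that overlaps each of the first 3 windows, in whole or in part, is a Foxp3 region, and that over each of the last 2 is not.
Rnf44 (minus strand, chr13:54693911-54694210): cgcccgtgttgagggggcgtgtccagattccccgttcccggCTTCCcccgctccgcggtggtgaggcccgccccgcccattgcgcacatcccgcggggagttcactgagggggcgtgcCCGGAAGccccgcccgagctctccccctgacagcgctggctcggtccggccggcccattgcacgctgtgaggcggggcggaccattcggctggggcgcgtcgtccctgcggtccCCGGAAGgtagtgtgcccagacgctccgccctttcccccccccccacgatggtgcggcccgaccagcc
Adnp (minus strand, chr2:168207063-168207362): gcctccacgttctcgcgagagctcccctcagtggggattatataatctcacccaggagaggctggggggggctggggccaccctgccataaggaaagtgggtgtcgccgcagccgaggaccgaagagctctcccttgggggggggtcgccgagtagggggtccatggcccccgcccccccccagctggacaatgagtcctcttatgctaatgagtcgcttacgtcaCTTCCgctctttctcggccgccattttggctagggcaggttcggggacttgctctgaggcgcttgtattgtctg
Satb1 (minus strand, chr17:51833241-51833540): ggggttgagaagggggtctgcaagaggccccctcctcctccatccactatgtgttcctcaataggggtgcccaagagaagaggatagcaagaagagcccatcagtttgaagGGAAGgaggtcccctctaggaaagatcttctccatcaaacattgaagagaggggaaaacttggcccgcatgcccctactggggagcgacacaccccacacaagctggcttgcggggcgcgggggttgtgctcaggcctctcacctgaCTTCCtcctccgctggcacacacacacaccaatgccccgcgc
Cracr2a (plus strand, chr6:127561086-127561385): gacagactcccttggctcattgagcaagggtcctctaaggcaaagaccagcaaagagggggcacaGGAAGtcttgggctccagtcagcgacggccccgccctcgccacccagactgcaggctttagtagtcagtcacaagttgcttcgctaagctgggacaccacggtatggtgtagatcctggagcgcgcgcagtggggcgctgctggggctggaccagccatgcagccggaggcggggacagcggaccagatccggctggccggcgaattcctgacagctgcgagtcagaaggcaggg
Tbc1d5 (minus strand, chr17:51179303-51179602): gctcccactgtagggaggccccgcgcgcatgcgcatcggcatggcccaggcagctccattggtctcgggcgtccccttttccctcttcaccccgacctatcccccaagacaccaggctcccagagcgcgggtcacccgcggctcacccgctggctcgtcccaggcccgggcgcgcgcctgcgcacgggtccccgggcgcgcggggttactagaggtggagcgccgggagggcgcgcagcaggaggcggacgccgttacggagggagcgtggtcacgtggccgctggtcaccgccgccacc

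Most Bcl11b regions of Tn cells were Foxp3 regions in Treg cells, whereas most Foxp3 regions held no Tn Bcl11b. The 3108 shared regions made up 59.5% of the Tn Bcl11b set (Wilson 95% interval 58.2 to 60.8) and 21.8% of the WT Foxp3 set (21.1 to 22.5). Over all deposited regions 64.5% were in the WT Foxp3 set. That background is high because the Foxp3 lists themselves supply most of the regions, and the Tn share lay below it. Both sets were listed on 1 common set of regions that do not overlap each other, so identity and an overlap of at least 1 bp give the same counts.

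The share of Foxp3 sites differed with the listing of the Bcl11b region in Treg cells. Of the 5222 regions, 4497 (86.1%) were common to Treg and Tn cells, called Treg-shared here, and 725 (13.9%) were specific to Tn cells. Foxp3 was listed at 2912 of the 4497 Treg-shared regions, 64.8% (63.3 to 66.1), and at 196 of the 725 Tn-specific regions, 27.0% (23.9 to 30.4). The odds ratio was 4.96 (4.15 to 5.94), with p = 3.3e-81 by Fisher's exact test, two-sided and adjusted by Benjamini-Hochberg over the 4 comparisons tested. Treg Bcl11b is a side of both comparisons that give these labels. Of the 2912 regions, 2559 were listed as common to Treg Bcl11b and Foxp3. The labels are thus tied by design, and the p-value is no independent measure of a link. Among regions in a list of the comparison of Treg Bcl11b with Foxp3, the odds ratio reversed to 0.036. Among regions wider than 276 bp, the largest width that recurs in any set, the shares were 92.6% and 83.4% and the odds ratio 2.47 (1.58 to 3.75). It was 2.27 (1.54 to 3.27) without any region of a recurring width, a restriction chosen after seeing the data. Bcl11b regions specific to Treg cells were Foxp3 regions in 358 of 2025 cases, 17.7% (16.1 to 19.4), so the regions that the 2 cell types had in common held the higher share. In the Treg-specific list 88.1% of regions were 198 bp wide, and of Treg-shared regions of that width 27.4% were Foxp3 regions. The part of width in this contrast was not tested.

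The 196 Tn-specific regions with Foxp3 were for the most part listed as Foxp3 alone in Treg cells. In the comparison of Treg Bcl11b with Foxp3, 161 of them stood in the list specific to Foxp3. A further 35 stood in the list common to Treg Bcl11b and Foxp3, although the Tn comparison gives them to Tn cells only. The opposite conflict occurred at Treg-shared regions, of which 353 (7.85%) were listed as Foxp3 alone and 756 (16.8%) in none of the lists of that comparison. The Treg Bcl11b set thus differed between comparisons, and a Treg-shared or Tn-specific region is meant as the Tn comparison lists it.

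**Figure D1:**
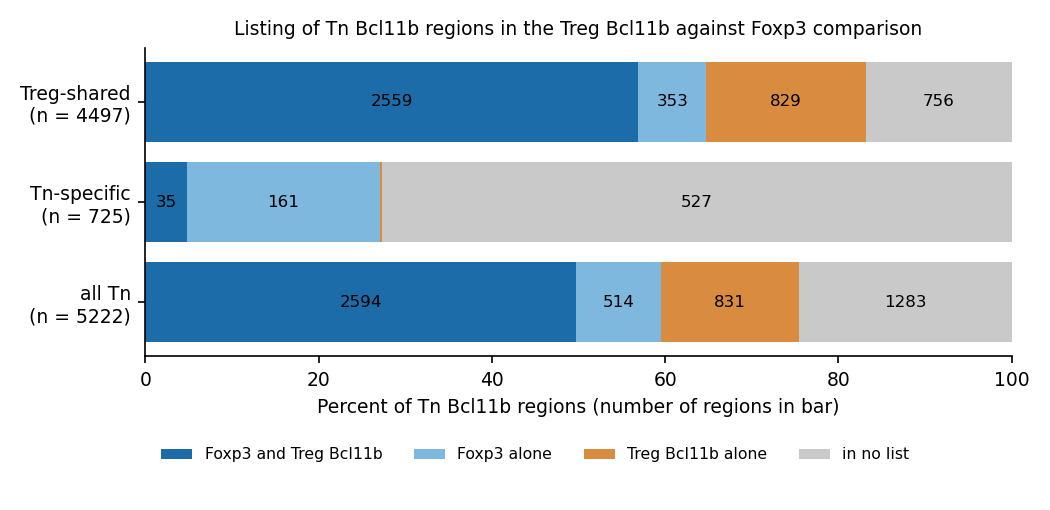
Listing of Tn Bcl11b regions in the comparison of Treg Bcl11b with Treg Foxp3, as percent of all regions in the class on the x axis, with the number of regions in each bar. Both blue shades are Foxp3 regions, 2912 of the 4497 Treg-shared and 196 of the 725 Tn-specific regions.

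Distances to the nearest Foxp3 region were taken for the 2114 Tn Bcl11b regions without Foxp3. Of these, 1585 were Treg-shared and 529 Tn-specific. A WT Foxp3 region lay within 1 kb, centre to centre, of 13.6% of them and within 10 kb of 39.7%, at a median distance of 15.2 kb. Treg-specific Bcl11b regions without Foxp3 had a Foxp3 region within 1 kb in 3.06% of cases and within 10 kb in 33.3%, at a median distance of 16.7 kb. Within 100 kb the shares were 78.8% for the Tn regions and 77.3% for the Treg-specific ones. The distance to be had for regions in general was not tested. At Foxp1, a forkhead factor that keeps naive T cells quiescent, the 1 Tn Bcl11b region (chr6:99261115-99261340, intragenic and Tn-specific) was not a Foxp3 region, but a Foxp3 region was centred 0.36 kb away, 1 of 15 at that gene. The coverage of single base pairs is not in the lists, so whether such neighbours belong to 1 element was not tested.

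The width of a region moved with its Foxp3 listing. Each set has a width that recurs in its specific list, 198 bp for 88.1% of the Treg-specific and 226 bp for 66.0% of the Tn-specific Bcl11b regions, and the other regions of each list are mostly wider. At 226 bp only 21 of 1125 Tn Bcl11b regions were Foxp3 regions, 1.87% (1.22 to 2.84). At 198 bp, a width that only Treg-shared regions had among these, 262 of 956 were, 27.4% (24.7 to 30.3). At any other width 2825 of 3141 were, 89.9% (88.8 to 90.9). Of the 2114 regions without Foxp3, 694 had the width of 198 bp and 1104 that of 226 bp. How regions of several sets were joined is not described in the labels, but no region overlaps another, so width may be part of the listing itself. These values are therefore a description, and the 4 tested comparisons are also given among regions wider than 276 bp. Of the 2542 such Tn regions 2335 (91.9%) were Foxp3 regions.

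**Figure D2:**
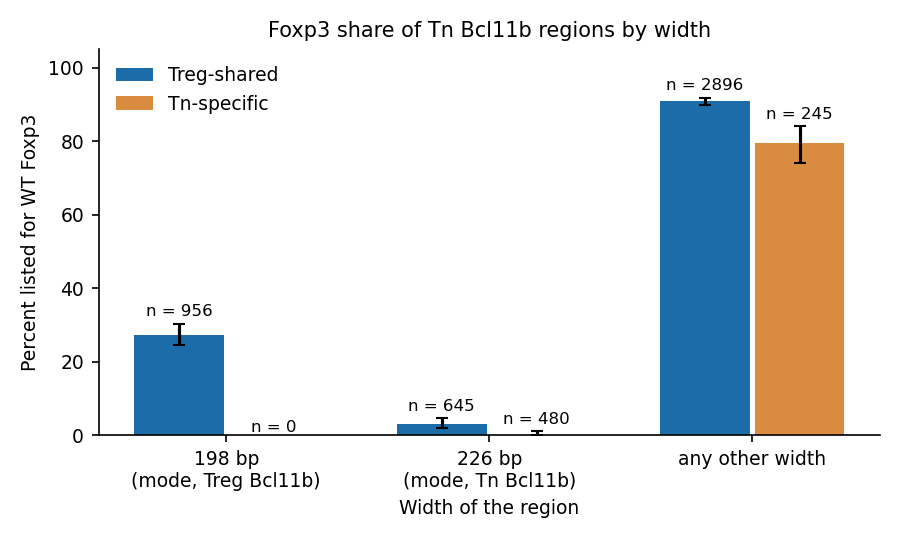
Percent of Tn Bcl11b regions listed for WT Foxp3 by width of the region in bp, for Treg-shared (blue) and Tn-specific (orange) regions, with Wilson 95% intervals and the number of regions above each bar. Treg-shared regions of 198 and 226 bp had Foxp3 shares of 27.4% and 3.10%, and those of any other width 90.8%.

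The second WT Foxp3 list, from the comparison with Bcl11b-KO Treg cells, held 2643 of the 3108 shared regions (85.0%). Of the rest, 403 were in no list of that comparison and 62 were listed as specific to Bcl11b-KO cells. All but 1 of those 403 had been listed as common to Treg Bcl11b and Foxp3, and they include all 262 regions of 198 bp. Foxp3 at Tn Bcl11b sites of that width therefore rests on 1 of the 2 listings, the one in which Bcl11b is the partner.

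Tn Bcl11b sites with Foxp3 lay at gene ends and starts far more often than those without. Within 1 kb of either end of a protein-coding gene lay 1924 of the 3108, 61.9% (60.2 to 63.6), against 575 of the 2114, 27.2% (25.3 to 29.1), with 37.9% over all deposited regions. The odds ratio was 4.35 (3.85 to 4.91), adjusted p = 4.2e-137 by the same exact test. The difference held within Treg-shared regions (odds ratio 4.22, 3.69 to 4.84) and within Tn-specific regions (3.999, 2.80 to 5.74), separations made after seeing the data. Among regions wider than 276 bp the call ended: 64.5% of those with Foxp3 and 61.8% of those without lay at a gene end, with an odds ratio of 1.121 (0.83 to 1.52) and an unadjusted exact p of 0.45. Without any region of a recurring width the difference was small but past the threshold, at an odds ratio of 1.39 (1.07 to 1.80) and an unadjusted exact p of 0.011. At 198 bp, 45.8% of the 262 regions with Foxp3 and 16.9% of the 694 without lay at a gene end. At 226 bp the shares were 47.6% of 21 with Foxp3 and 25.8% of 1104 without.

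The starts themselves, which the annotation gives with strand for 17492 of 21887 protein-coding genes and for none on chromosome 18, placed the difference close to the start. A start lay within 250 bp of the centre of 46.3% of the regions with Foxp3 (44.6 to 48.1) and of 13.4% of those without (12.0 to 14.9). The median distance to a start was 355.5 bp with Foxp3 and 8978 bp without. Foxp3 regions that held no Tn Bcl11b lay in between, with 27.0% within 250 bp and a median of 4325.5 bp. Treg-specific Bcl11b regions were the least promoter-bound of the classes described, with 4.17% within 250 bp and a median of 10700 bp. Tn-specific regions with Foxp3, at 37.7% (31.1 to 44.7), lay nearer in this share to the Treg-shared regions with Foxp3 (46.9%, 45.1 to 48.7) than to Tn-specific regions without (11.8%, 9.28 to 14.8). The share inside a gene body was 61.7% with Foxp3 and 63.5% without. These distances to starts cover regions of all widths and were not taken among regions wider than 276 bp, where the gene end difference above lost its call. The part of width in the start contrast was not tested.

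**Figure D3:**
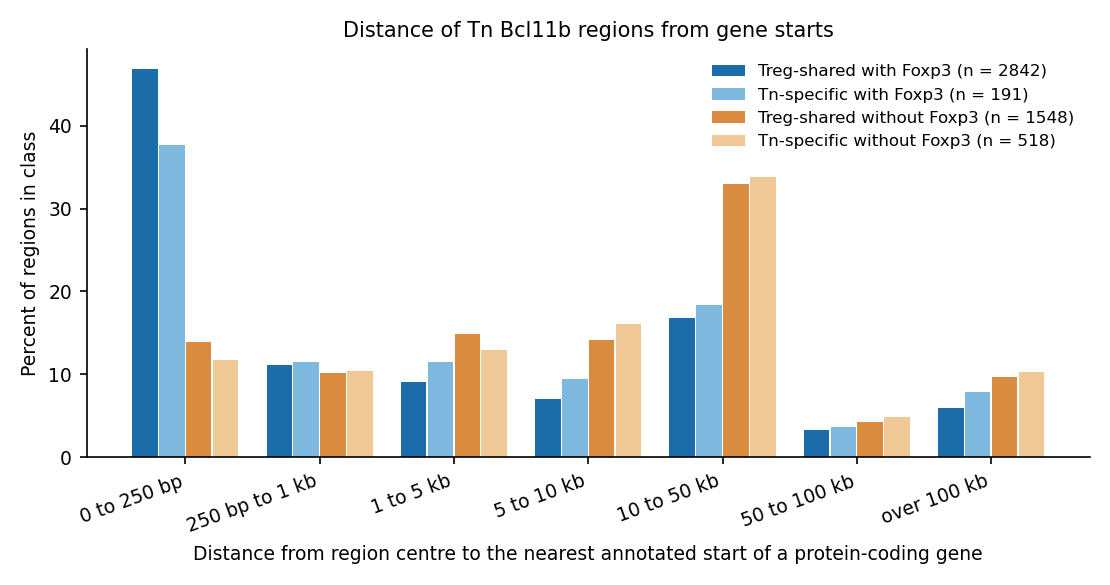
Distance from the centre of each Tn Bcl11b region to the nearest annotated start of a protein-coding gene (x axis, binned) against the percent of the class (y axis), for regions on chromosomes with annotated starts. The bins differ in width, so percents of different bins do not compare how densely regions lie. Within 250 bp lay 46.3% of the regions with Foxp3 (blue shades) and 13.4% of those without (orange shades). In the much wider bin of 10 to 50 kb the shares were 16.9% and 33.2%.

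The promoter windows under these sites were GC-rich in both classes and differed in an Ets word. Of all 21263 windows of 300 bases, 1805 overlapped a Tn Bcl11b region with Foxp3 and 292 one without. The median GC content was 62.0% and 64.7%, against 56.3% over all windows, with a median of 24, 23 and 13 CpG. CCGGAAG, a word that Ets factors bind, stood in 36.1% of the windows with Foxp3, in 24.7% of those without and in 11.6% of all. The part of base composition in the excess over all windows was not tested. The core GGAAG was found in 82.6%, 73.3% and 72.4%, and the Runx word TGTGGT in 12.4%, 11.6% and 15.0%. The forkhead words were rare in each: TGTTTAC stood in 2.55%, 0.685% and 3.01%, and TGTTTGC in 3.43%, 2.74% and 4.58%. In the windows printed above, that of Rnf44 had CCGGAAG 2 times. Those of Adnp, Satb1 and Cracr2a had only the core, 1, 2 and 1 times, and that of Tbc1d5 had none of the words. The core of Adnp, that of Cracr2a and the later one of Satb1 lay outside the bases their regions cover. Not all overlapped windows of the named genes are printed. A further Rnf44 window under a Foxp3 region (chr13:54687759-54688058) had neither CCGGAAG nor GGAAG. It had TGTTTGC 1 time, outside the bases its region covers. Matches describe letters in these windows and are not shown to be bound.

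At the level of genes, Bcl11b in Tn cells and Foxp3 in Treg cells more often met in at least 1 region than only at separate ones. With each region given to the closest protein-coding gene, at most 100 kb from the region's centre, 5174 of the 5222 regions fell to 4379 genes. Of these genes, 2801 (64.0%) had a region with both factors, which is 12.8% of all 21887 protein-coding genes. Another 708 (16.2%) had both factors but only at different regions, and 870 (19.9%) had no Foxp3 region. Foxp3 was thus listed at 80.1% of these genes, against 39.0% of all protein-coding genes. Most genes had 1 shared region, 2545 of them, while 256 had 2 or more and 41 had 3 or more. Of the 2072 regions without Foxp3 that had a gene, 1136 (54.8%) lay at a gene with a Foxp3 region elsewhere.

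The genes with the most Treg-shared regions that were Foxp3 regions were Amz2 with 5 and Rnf44 and Septin9 with 4 each. Of the 35 genes with 3 each, Actr3 and Adnp are the first by symbol. Amz2 encodes a metallopeptidase, and all 5 of its Tn Bcl11b regions were Foxp3 regions, spread from -5.74 to 14.2 kb around its start. Rnf44, which encodes a RING finger protein, had 4 regions, all with Foxp3 and no further Foxp3 region, centred between -459.5 and 521.5 bp from its annotated starts, where a minus sign means before the start. The region over the printed Rnf44 window (chr13:54693915-54694245) was listed as Foxp3 alone in Treg cells and as common to WT and Bcl11b-KO Foxp3. At Septin9, a cytoskeletal GTPase, the 198 bp region centred at -679.5 bp from a start had no Foxp3, and a region of 333 bp at -131 bp did. Actr3, a subunit of the Arp2/3 actin complex, likewise had a 226 bp region without Foxp3 inside the gene among 3 with it. Adnp, a homeobox factor of chromatin complexes, had a shared region of 308 bp (chr2:168207255-168207562), which covers bases 1 to 108 of the printed window and was listed for Bcl11b in KIKO cells and for Foxp3 in Bcl11b-KO cells as well.

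Treg-shared regions without Foxp3 were most numerous at Cracr2a and Zbtb20, with 3 each. Cracr2a, a calcium-binding regulator of the store-operated calcium channel, had 1 region of 301 bp at its start (chr6:127561221-127561521), over bases 136 to 300 of the printed window, listed for Bcl11b in Treg and in KIKO cells and in no Foxp3 list. Its other 2 regions had 226 bp and were in no list but those of the Tn comparison. Cracr2a had 1 Foxp3 region elsewhere, and a Foxp3 region was centred 0.464 kb from 1 of those 2. Zbtb20, a zinc-finger repressor, had 3 regions of 226 bp, also listed in no other comparison. It had 2 Foxp3 regions elsewhere, and a Foxp3 region was centred 0.64 kb from 1 of the 3. A further 83 genes had 2 each, of which Aadacl2, Acaca and Adamtsl4 are the first by symbol, Acaca being the acetyl-CoA carboxylase of fatty acid synthesis.

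Tn-specific regions with Foxp3 were single at 190 of 193 genes. The other 3 had 2 each: Klf13, a Krüppel-like factor, Mob3b, a kinase activator of the Mob family, and Tha1, a threonine aldolase. At Klf13 the Tn-specific regions were 358 and 372 bp wide, both Foxp3 alone in Treg cells and both common to WT and Bcl11b-KO Foxp3, and the 465 bp region at the gene was Treg-shared with Foxp3. Of the Tn-specific regions without Foxp3, Tbc1d5, a regulator of Rab GTPases and retromer, had the most, 3 beside a Treg-shared one. The Tbc1d5 region over bases 154 to 300 of the printed window (chr17:51179124-51179449) was not in the WT Foxp3 set, but was listed as specific to Foxp3 of Bcl11b-KO cells and as common to WT and KIKO Bcl11b. A further 16 genes had 2 Tn-specific regions each without Foxp3. Of Ano6, Epha3, Fgf18 and Fmn1, the first of them by symbol, Epha3, an ephrin receptor, Fgf18, a fibroblast growth factor, and Fmn1, a formin, had no Foxp3 region at all.

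Genes of naive T cells and of the T lineage carried Tn Bcl11b in 22 of 28 cases, against 20.01% of all protein-coding genes, and 19 had it at a Foxp3 region, against 12.8%. Of their 38 Tn regions 28 (73.7%) were Foxp3 regions, against 60.0% of all Tn regions with a gene. Tcf7, which encodes the T cell factor TCF-1, had 4 regions, 3 of them Treg-shared with Foxp3 and 336 to 425 bp wide, and a Tn-specific one of 226 bp without Foxp3. Lef1, its relative, had a single region of 555 bp (chr3:131111977-131112531), Tn-specific, listed as Foxp3 alone in Treg cells and as common to WT and Bcl11b-KO Foxp3. Bcl11b itself had 2 intragenic regions, both Foxp3 regions. One of them (chr12:107993095-107993393) was Tn-specific in the Tn comparison and common to Treg Bcl11b and Foxp3 in the other, which is 1 of the 35 conflicts above. Satb1, a chromatin organiser, had 3 regions, all of 198 bp, and only that at its start (chr17:51833394-51833591, bases 1 to 147 of the printed window) was a Foxp3 region, of 11 Foxp3 regions at the gene. Ccr7, the chemokine receptor for entry into lymph nodes, had 1 region of 198 bp with Foxp3 and 6 more Foxp3 regions without Tn Bcl11b. Runx1, a core T cell factor, had 3 Treg-shared regions with Foxp3 at 1 of them.

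Genes of the Treg signature had Tn Bcl11b regions in 10 of 26 cases, while 23 of the 26 had a Foxp3 region, against 20.01% and 39.0% of all protein-coding genes. All 10 had Tn Bcl11b at a Foxp3 region, and 11 of their 14 Tn regions (78.6%) were Foxp3 regions, against 60.0% over all. Housekeeping genes had 81.8% of 11 Tn regions, so a share above 60.0% is not particular to T cell lists. No gene list was tested against the share over all, and most rest on few regions. Foxp3, Ctla4, Ikzf2, Ikzf4 and Il10 had no Tn Bcl11b region and 1, 4, 5, 2 and 6 Foxp3 regions. Il2ra, the alpha chain of the interleukin-2 receptor, had 1 Tn region (chr2:11653334-11653671), Treg-shared and 1 of the 6 Foxp3 regions of the gene. Icos, a costimulatory receptor, had 1 of 198 bp among its 5 Foxp3 regions, and Capg, an actin-capping protein, had 2 of its 3. Tigit, an inhibitory receptor, had 3 Tn regions with Foxp3 at 1. At Prdm1, which encodes Blimp-1, the Tn-specific region of 391 bp at 133 bp after a start was outside the WT Foxp3 set but was listed as common to WT and Bcl11b-KO Foxp3 in the other comparison. Gata3, Il7r and Bach2, factors and a receptor that Treg and naive cells use, had no Tn region and 2, 4 and 5 Foxp3 regions.

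The next lists stand beside the same shares over all genes: 20.01% with a Tn Bcl11b region, 12.8% with a shared one, and 60.0% of the Tn regions listed for Foxp3. Of 28 genes of T cell receptor signalling, 24 had a Tn Bcl11b region and 20 had one with Foxp3, which covered 25 of their 33 Tn regions (75.8%). Nr4a1, an orphan nuclear receptor induced by the receptor, had 3 of 3 with Foxp3, the widest of 539 bp at -181 bp from a start. Egr1 had 3 of 4. Egr2, a related early factor, had 2 regions of 226 bp within the gene and neither was a Foxp3 region. It had 1 Foxp3 region elsewhere. Of the interleukin-2 and STAT5 list, 8 of 16 genes had a Tn region and 7 a shared one, and 8 of 11 Tn regions (72.7%) were Foxp3 regions. Stat5b had Foxp3 at 2 of 3 regions and Jak3 at its only one, 129 bp after its start, whereas Bcl2, the survival factor, had 2 regions of 226 bp without Foxp3. Bcl2 had 3 Foxp3 regions elsewhere. Chemokine receptor and homing genes had Tn regions at 12 of 18 genes, all 12 with a shared region, and 16 of 19 Tn regions (84.2%) were Foxp3 regions. Cxcr5, the receptor for B cell follicles, had 3 of 3 with Foxp3, Ccr9, the receptor for gut homing, had 2 of 2, S1pr1, the receptor for lymph node egress, had 2 of 4, and the integrin chain Itgb1 had 1 of 2.

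Regulators and cytokines of T helper cells had Tn Bcl11b at 7 of 19 genes, 5 of them with Foxp3, and 7 of 9 Tn regions (77.8%) were Foxp3 regions, beside the same 60.0% over all. Bcl6 had 2 of 2 regions with Foxp3 and Batf 1 of 1, while the 1 region of Il5, a type 2 cytokine, was Tn-specific without Foxp3. Of 12 genes of the NuRD corepressor, 6 had a Tn region and 4 a shared one (4 of 6 Tn regions), Gatad2a and Mbd2 among the latter and Hdac2 and Mbd3 among the former without Foxp3. Housekeeping genes had a Tn region in 8 of 16 cases and 9 of 11 of these regions (81.8%) were Foxp3 regions, including 3 of 3 at Ywhaz, which encodes a 14-3-3 protein, 1 of 2 at Actb, and the single ones at Polr2a and Rpl13a.

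Marker genes of other cell types stand beside the same shares over all genes, 20.01% with a Tn Bcl11b region and 12.8% with a shared one. B cell markers had a Tn region at 2 of 12 genes, Ebf1 and Fcer2a, CD8 and NK markers at 2 of 12, Cd8b1 and Klrk1, and neural genes at 3 of 12, Grin1 and Map2 among them, and none of these 7 regions was a Foxp3 region. Myeloid markers had a Tn region at 3 of 12, with Foxp3 at Cebpb and Spi1 and not at the 2 regions of Fcgr1. With 2 to 4 Tn regions per list, these counts cannot separate the lists from the 60.0% over all regions with a gene.

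**Figure D4:**
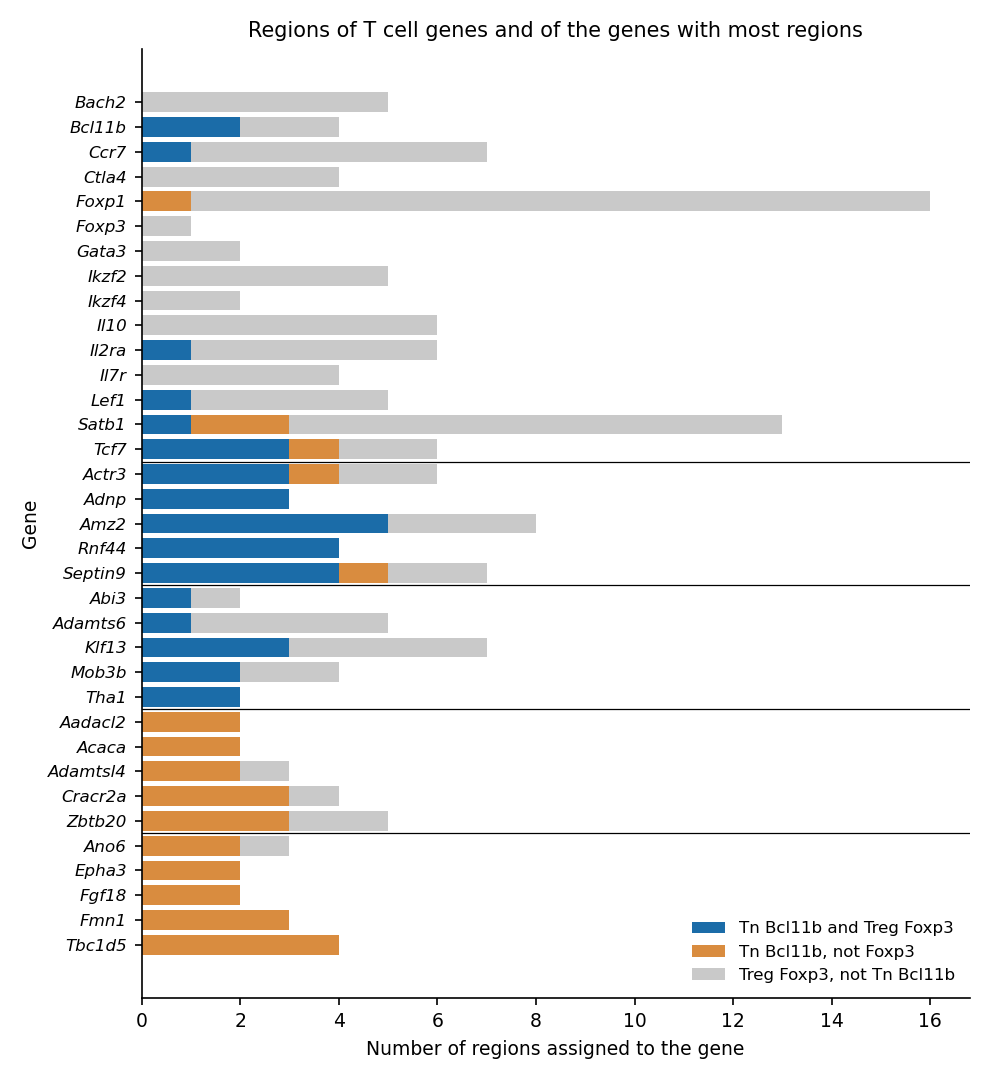
Number of regions assigned to each gene (x axis), for the T cell genes named throughout (top block) and for the genes with the most regions of 4 classes: Treg-shared with Foxp3, Tn-specific with Foxp3, Treg-shared without and Tn-specific without. Grey Foxp3 regions without Tn Bcl11b make up all regions of Foxp3, Ctla4, Ikzf2, Ikzf4, Il10, Gata3, Il7r and Bach2, and 15 of the 16 of Foxp1.

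In Treg cells that lack Foxp3, Bcl11b was listed at more of the Tn sites that are Foxp3 sites in WT Treg cells. KIKO Bcl11b was listed at 1283 of 3108 of them, 41.3% (39.6 to 43.0), and at 330 of the 2114 others, 15.6% (14.1 to 17.2), with 9.95% over all deposited regions. The odds ratio was 3.80 (3.31 to 4.37), adjusted p = 5.2e-91 by the same exact test. Treg Bcl11b is a side of both the Foxp3 and the KIKO comparison. Of the 3108 regions, 2594 were listed as common to Treg Bcl11b and Foxp3. These labels are thus also tied by design, and the p-value is no independent measure of a link. Much of the gap lay in regions outside the KIKO comparison, since 1225 regions without Foxp3 (57.9%) and 624 with it (20.1%) were in none of its lists. Among the regions it lists, the shares were 51.7% and 37.1%, with an odds ratio of 1.81 (1.54 to 2.12). Among all Tn regions wider than 276 bp the shares were 42.5% and 33.3%, with an odds ratio of 1.48 (1.09 to 2.03) and an unadjusted exact p of 0.010, and without any region of a recurring width the odds ratio was 1.34 (1.03 to 1.75). Among regions both in a KIKO list and wider than 276 bp, a restriction chosen after seeing the data, the call ended, with 993 listed for KIKO and 831 not, against 69 and 47, an odds ratio of 0.81 (0.54 to 1.21) and an unadjusted exact p of 0.34. Only 1 shared region was listed as specific to KIKO cells, while 1201 were listed as specific to WT. The whole lists are also unequal, with 67 and 3523 regions, and Tn regions without Foxp3 had 3 and 559.

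Foxp3 at Tn Bcl11b sites was listed in Bcl11b-KO Treg cells somewhat more often than Foxp3 elsewhere, and the direction depended on region width. Of WT Foxp3 regions in a list of that comparison, 2015 of 2705 at Tn Bcl11b sites were also listed for Bcl11b-KO Foxp3, 74.5% (72.8 to 76.1), against 6890 of 10997 elsewhere, 62.7% (61.7 to 63.6), and 65.0% over both. The odds ratio was 1.74 (1.58 to 1.92), adjusted p = 4.9e-32 by the same exact test. The comparison leaves out regions in none of its lists, 403 of 3108 (13.0%) at Tn sites and 145 of 11142 elsewhere. With these counted as not listed, a setting added after seeing the data, the shares were 64.8% and 61.8%, with an odds ratio of 1.14 (1.05 to 1.24) and an unadjusted exact p of 0.0024. Among regions wider than 276 bp the direction turned, with 1760 of 2271 (77.5%) against 3019 of 3585 (84.2%), an odds ratio of 0.65 (0.56 to 0.74) and an unadjusted exact p of 1.7e-10. The lists thus give no direction for this comparison that holds at all these settings. As listed, 690 shared regions (22.2%) were specific to WT Foxp3, among them those of 408 bp at Cxcr5 and of 539 bp at Nr4a1. Of Foxp3 regions elsewhere 36.9% were.

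**Figure D5:**
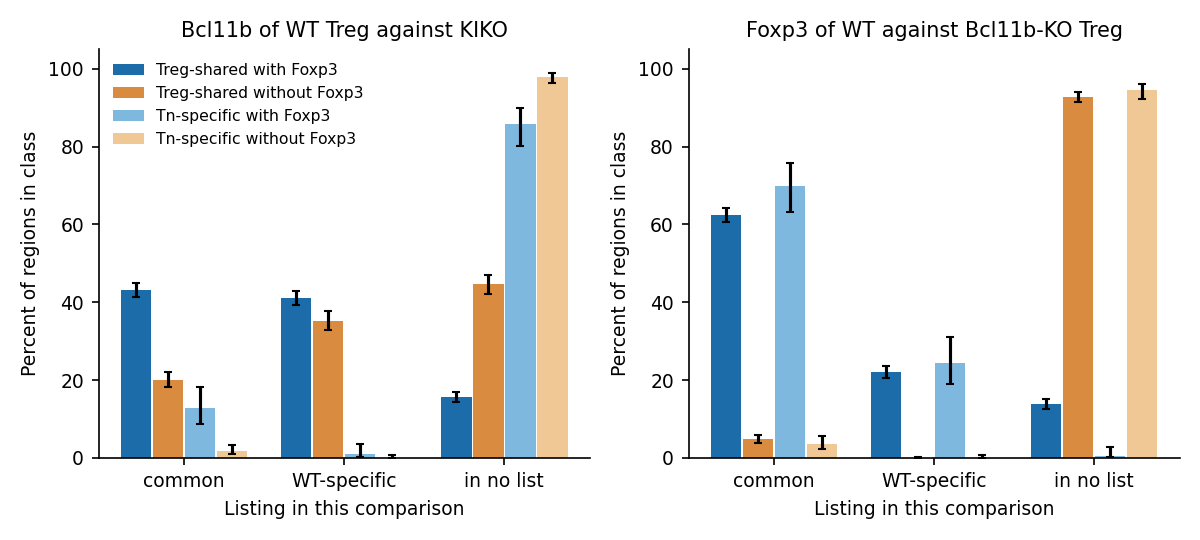
Percent of each class of Tn Bcl11b regions (y axis, Wilson 95% intervals) by listing (x axis) in the comparison of WT Treg with KIKO Bcl11b (left) and of WT with Bcl11b-KO Foxp3 (right); listings specific to KIKO or Bcl11b-KO cells, at most 5.10% of any class, are not drawn. Tn-specific regions without Foxp3 were in no list in 97.9% and 94.5% of cases.

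Read together per region, 805 of the 3108 shared regions were listed as common in both of these comparisons, so they appear in the lists of all 5 sets. A further 263 were listed as specific to WT in both, and 456 were listed as common to WT and Bcl11b-KO Foxp3 while outside the KIKO comparison. In all, the KIKO comparison lists 2131 regions as common and 3523 as specific to WT, and the Bcl11b-KO comparison 10567 and 4829. Shares of these joint listings over all regions were not counted, so the counts are a description. Of the 2114 Tn regions without WT Foxp3, 94 (4.45%) were listed as common to WT and Bcl11b-KO Foxp3, against their other listing, and 49 (2.32%) as specific to Bcl11b-KO cells. The list specific to Bcl11b-KO cells holds 2311 of the 22081 deposited regions.

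The widest Treg-shared region with Foxp3, 794 bp, lay in Il27ra (chr8:84042053-84042846), a cytokine receptor. The widest Treg-shared one without Foxp3, 632 bp, lay at the start of Sgk1 (chr10:21994188-21994819), a serum-induced kinase. Among Tn-specific regions these were 608 bp in Aqr, a splicing helicase, with Foxp3, and 474 bp at 9.96 kb from Ksr1, a scaffold of MAP kinase signalling, without it. By chromosome, the Foxp3 share of Tn Bcl11b regions ran from 44.9% of 274 on chromosome 3 to 68.7% of 450 on chromosome 11, with 52.6% of 76 on the X chromosome and 0 of 2 on the Y.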

How the data were processed

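Bcl11b and Foxp3 were measured by ChIP-seq. The submitters' processing notes name mm10 and, without roles, HISAT2 2.1.0, HOMER 4.10.1, deepTools, SAMtools 1.3, Trim Galore 0.4.2, cutadapt 1.12 and FastQC. The authors deposited 12 lists of region positions (chromosome, start, end), 3 for each comparison, with no signal or score. Not given in the sources used here: peak threshold, pooling, and the rule behind specific and common. Of the 2 WT Foxp3 replicates only the first is labelled with the list of regions that Foxp3 and Bcl11b have in common, and the third Treg Bcl11b replicate is labelled with no list, so which libraries entered is not known. Depth is unknown, and the labels do not say that libraries came from separate animals.

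Repeated rows, 127 in all, were dropped; 4 regions stood in 2 classes of the Tn comparison and counted as Treg-shared. Shares have Wilson 95% intervals and odds ratios exact ones, from two-sided Fisher's exact tests adjusted by Benjamini-Hochberg over 4 tests. Regions share libraries and genes, so p-values can be too small. The planned width test is given without a test because width may be part of the listing. Genes, starts and sequences came from RefSeq tables of GRCm38.p6. Members, the 12 gene lists and the naming rule were chosen with earlier results of these data known. The rule names 15 T cell genes, the 5 leading genes of each class and up to 4 per list by Tn regions, ties by symbol; a few of these are not reported here. Steps were tested on simulated data. Python 3.11.15, numpy 2.4.6, scipy 1.17.1 and matplotlib 3.10.9 were used.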

Additional observations from a re-analysis of the deposited data

How the results depend on the processing

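No paired analysis was possible because the lists give 1 value per group and none per replicate; for the same reason no replicate could be left out. Over the other settings of 8 results, the width one a description only, 59 values stayed the same, 11 values moved, 4 reversed and 1 lost its call. Same means an unchanged direction and call for an odds ratio. For the share it means a value inside the main interval, and for counts of genes a change below a set fold. The Foxp3 share of Tn Bcl11b regions was 52.4% with the Foxp3 set of the Bcl11b-KO comparison, 50.6% with Foxp3 in both comparisons, 61.3% in either, 64.3% with edges within 500 bp, 91.9% among regions wider than 276 bp and 43.5% over 1 kb from a gene end. In settings chosen after seeing the data it was 90.4% without regions of any set's recurring width, 64.8% in Treg-shared and 27.0% in Tn-specific regions. The odds ratio of Treg-shared against Tn-specific regions fell to 2.47 among wide regions, and reversed to 0.036 among regions in a list of the Foxp3 comparison, which by construction almost no Tn-specific region enters except as a Foxp3 region. Among wide regions the gene end odds ratio was 1.121, without a call, and the Bcl11b-KO Foxp3 odds ratio reversed to 0.65, as it did, to 0.57, without recurring widths. The KIKO odds ratio reversed, without a call, to 0.81 among wide regions in a KIKO list. Genes with both factors numbered 2212 with wide regions and 1418 over 1 kb from a gene end, against 3509, because fewer regions were counted; the other causes were not tested. The tests cannot show variation between libraries, and depth cannot be judged from positions.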
